A study of Mus musculus with 3 samples.

Results

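The genes described here control how long cytokine mRNAs last in the cytoplasm. They were taken as a list of 9 genes by name, though with earlier results of these data known: Zfp36, Zfp36l1 and Zfp36l2 of the tristetraprolin family, the regnases Zc3h12a and Zc3h12c, the roquins Rc3h1 and Rc3h2, Elavl1, which codes for HuR, and Tent5c. All 9 were among the 22238 genes listed in all 3 libraries of the series. All 9 also passed the filter on low values in each of the 3 comparisons, which asks that 1 or both libraries of a pair exceed a rescaled TPM of 3.

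RNA-Seq was done on monocytes from the bone marrow (BM-Mono), monocytes from the spinal cord (SC-Mono) and monocyte-derived antigen-presenting cells from the spinal cord (SC-APC) of female C57BL/6J mice, 10 to 12 weeks old, at days 14 and 15 of experimental autoimmune encephalomyelitis (EAE), a mouse model of multiple sclerosis. All mice, including the source of BM-Mono, had received myelin oligodendrocyte glycoprotein peptide in complete Freund's adjuvant and 250 ng of pertussis toxin at each of 2 injections, so no library came from healthy animals. Each library was a single pool: 13 mice from 2 experiments for BM-Mono, and 18 mice from 3 experiments for both spinal cord populations. Every sample title labels its cells as wild type (WT). The spinal cord cells were gated as CD45+ CD11b+ CD64+ Ly6G- with high (SC-Mono) or low to absent (SC-APC) Ly6C, and BM-Mono as CD45+ CD11b+ Ly6C high Ly6G- CD11c-. One label of the SC-APC sample names the bone marrow as its source, whereas its title and its tissue label name the spinal cord, as does the description of the series.

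Tristetraprolin, encoded by Zfp36, and its paralogs bind AU-rich elements in the 3′ untranslated region (3′ UTR) of cytokine mRNAs and bring in the CCR4-NOT complex, which removes the poly(A) tail. Regnase-1, encoded by Zc3h12a, cuts stem-loops in the same kind of mRNA, and the roquins bind such stem-loops and also recruit deadenylases. HuR binds AU-rich elements and is best known for stabilizing the mRNA, and TENT5C is a poly(A) polymerase that lengthens the tail. In stimulated macrophages tristetraprolin, regnase-1 and the roquins limit the output of Tnf, Il6 and other inflammatory genes, and much of the control of these proteins lies in phosphorylation and cleavage of the protein, which mRNA levels do not show.

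Reads assigned to genes summed to between 27283795 and 33280643 per library. Levels are given as TPM, a share of transcripts per length, rescaled to the same sum over the common genes, with a 95% Wilson interval. Fold changes were computed from reads scaled by size factors and are given as log2 values with a 98% interval. A gene was called higher or lower where that interval lay wholly beyond a 2-fold change. Since every population was 1 library, there is no replicate check, the intervals hold counting error alone, and reads copied by PCR do not stand for separate molecules. In pools of sorted cells, fewer cells that express a gene and less RNA per cell cannot be told apart.

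In SC-Mono, 5 of the 9 genes were called higher than in BM-Mono and 0 were called lower. Across all 10072 genes active in this pair of libraries, 13.6% were called higher and 11.0% lower. The 5 were Zfp36, Zfp36l1, Zc3h12a, Zc3h12c and Tent5c, while Zfp36l2, Rc3h1, Rc3h2 and Elavl1 were not called. Tent5c, at 0.425 TPM in BM-Mono, passed the filter through SC-Mono alone, so a call of lower was hardly possible for it. The median log2 fold change of the 9 genes was 2.09, against -0.17 for all active genes. From SC-Mono to SC-APC none of the 9 was called, where 1.94% of 9734 active genes were called higher and 1.66% lower. The levels of all 9 genes are plotted by library, and their fold changes in both steps.

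**Figure D1:**
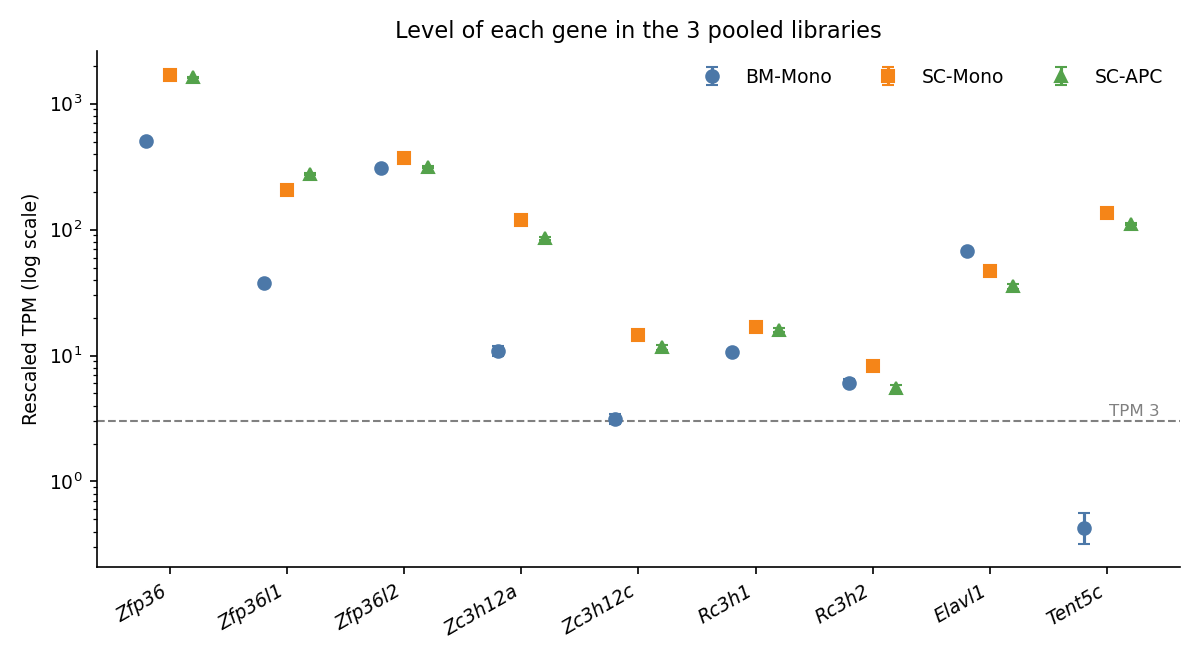
Rescaled TPM (log scale) of the 9 genes in BM-Mono (circles), SC-Mono (squares) and SC-APC (triangles), 1 pooled library each, with bars for 95% Wilson intervals of counting error and a dashed line at a TPM of 3. Zfp36 reached 1703 TPM in SC-Mono and Tent5c lay at 0.425 TPM in BM-Mono, whereas Elavl1 was highest in BM-Mono at 67.5 TPM.

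Zfp36 (chr7:28376784-28380253, minus strand, on GRCm38, as for all positions here) was the most abundant of the 9 genes in each library. Its level was 502 TPM (496 to 508) in BM-Mono, 1703 (1691 to 1715) in SC-Mono and 1623 (1612 to 1634) in SC-APC. The rank of Zfp36 among the common genes was 299 in BM-Mono, 92 in SC-Mono and 97 in SC-APC, so that it was already a strongly expressed gene in the bone marrow. Its log2 fold change from BM-Mono to SC-Mono was 2.09 (98% interval 2.06 to 2.11), a 4.24-fold higher scaled read count, and 91.2% of active genes had a lower value. Between SC-Mono and SC-APC its log2 fold change was -0.06, and its sign turned to 0.01 with reads divided by effective length and to 0.16 with TPM as deposited.

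Zfp36l1 (chr12:80107754-80113013, minus strand) codes for a paralog that binds the same elements. Its level rose from 37.8 TPM (36.3 to 39.4) in BM-Mono to 207 (204 to 211) in SC-Mono and was 275 (271 to 280) in SC-APC. The log2 fold change was 2.76 (2.69 to 2.84) from BM-Mono to SC-Mono and 0.38 (0.34 to 0.42) from SC-Mono to SC-APC. It was the gene of the list with the highest fold change in the step from SC-Mono to SC-APC under every scaling tried, though it did not reach a 2-fold change.

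Zfp36l2 (chr17:84183931-84187947, minus strand), the third gene of the family, differed from the other 2 in its pattern. It had 308 TPM (304 to 313) in BM-Mono, 372 (368 to 377) in SC-Mono and 313 (309 to 317) in SC-APC, and its log2 fold change from BM-Mono to SC-Mono was 0.58 (0.55 to 0.61). On log2 of rescaled TPM plus 1 the difference was 0.27. In BM-Mono, Zfp36l2 made up 36.4% of the summed TPM of the family, Zfp36 59.2% and Zfp36l1 4.46%. In SC-Mono these shares were 16.3%, 74.6% and 9.08%, and in SC-APC 14.2%, 73.4% and 12.4%. The ratio of Zfp36 to Zfp36l2 within a library, which needs no scaling between libraries, was 1.63 (95% interval 1.60 to 1.66) in BM-Mono, 4.57 (4.51 to 4.64) in SC-Mono and 5.18 (5.11 to 5.26) in SC-APC. The summed family level was 848 TPM in BM-Mono, 2283 in SC-Mono and 2211 in SC-APC.

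**Figure D2:**
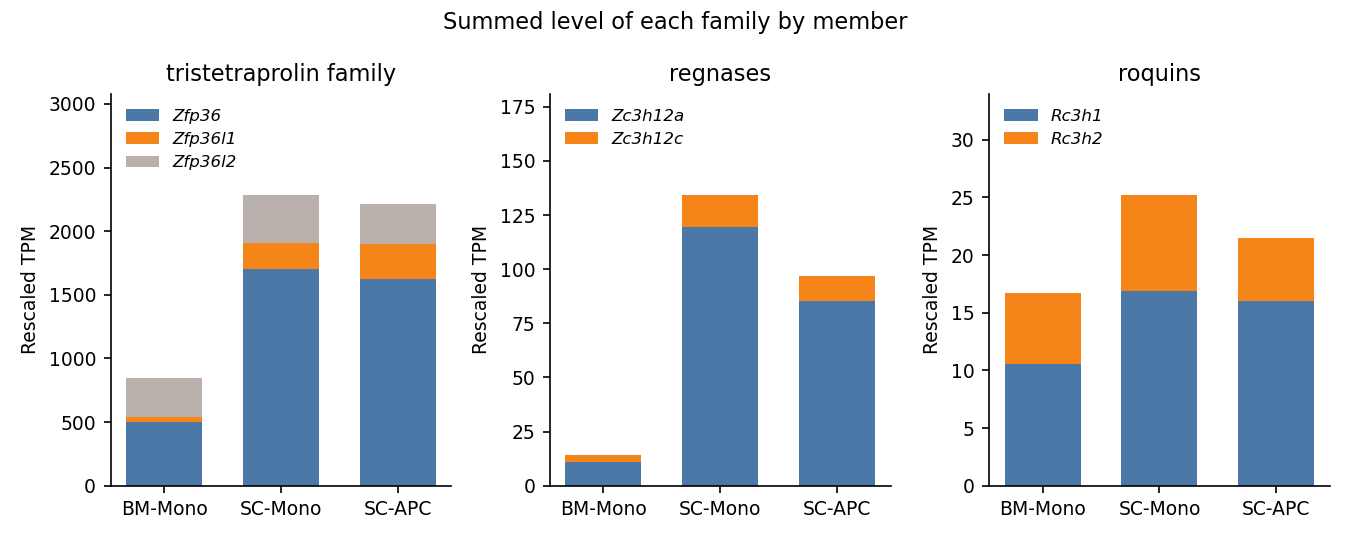
Summed rescaled TPM (bars start at 0, linear axes that differ between panels) of the tristetraprolin family, the regnases and the roquins in BM-Mono, SC-Mono and SC-APC, 1 pooled library each, split by gene. The tristetraprolin family summed to 848 TPM in BM-Mono and 2283 in SC-Mono, and the regnases to 14.0 and 134 TPM, while the roquins, neither of them called, summed to 16.7 and 25.2 TPM.

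The element that tristetraprolin binds best, the nonamer TTATTTATT as written in DNA, also occurs in the 3′ UTRs of the regulators themselves. In the principal transcript with the longest 3′ UTR of each gene (GENCODE M21, GRCm38), 6 of the 9 genes had at least 1 copy on the sense strand. Of all 20662 such 3′ UTRs of protein-coding genes, 7.15% had a copy. For each gene, the share was also taken among 3′ UTRs of like length, and it ran from 4.21% for those like Zfp36 to 28.1% for those like Rc3h1. The 3 tristetraprolin family genes, Rc3h1 and Rc3h2 had 1 copy each. Elavl1 had 8 copies, overlapping ones included, and Zc3h12a, Zc3h12c and Tent5c had 0. Among 3′ UTRs of like length, 4.88%, 17.4% and 18.3% had a copy for these last 3 genes, so most had none. The 5 genes called higher in SC-Mono were these 3 and Zfp36 and Zfp36l1, which had a copy. Any link between the nonamer and the calls was not tested. The sites below are shown since they place regulators and a target side by side, with the nonamer in capitals and 10 bases on either side where a further copy may overlap. The site of Zfp36 lies at chr7:28376951-28376979 (minus strand), that of Zfp36l1 at chr12:80108167-80108195 (minus), that of Zfp36l2 at chr17:84184914-84184942 (minus), the third copy of Elavl1 at chr8:4285780-4285808 (minus) and a copy of Tnf at chr17:35199678-35199706 (minus).
Zfp36: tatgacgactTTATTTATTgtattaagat
Zfp36l1: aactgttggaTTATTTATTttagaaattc
Zfp36l2: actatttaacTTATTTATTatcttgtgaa
Elavl1: aattatttatTTATTTATTtatttttatt
Tnf: tatttattatTTATTTATTatttatttat

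The windows of Zfp36, Zfp36l1 and Zfp36l2 held a lone nonamer, whereas the one of Elavl1 held 4 overlapping copies and that of Tnf 3. Of the 19 target mRNAs listed here for tristetraprolin or regnase-1, 8 had at least 1 nonamer, with 5 copies in Tnf, 4 in Csf2 and 4 in Cxcl2. A match is a description of the letters and no measure of binding.

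The regnases were low in BM-Mono and were called higher in both spinal cord libraries. Zc3h12a (chr4:125118423-125127840, minus strand) had 475 reads in BM-Mono, 4990 in SC-Mono and 4460 in SC-APC, or 10.9 TPM (9.93 to 11.9), 120 (116 to 123) and 85.4 (82.9 to 87.9). Its log2 fold change from BM-Mono to SC-Mono was 3.85 (3.69 to 4.01), a 14.4-fold higher scaled read count. Zc3h12c (chr9:52111344-52168572, minus strand), a less studied gene of the same nuclease family, had 3.14 TPM (2.85 to 3.46) in BM-Mono, 14.5 (13.9 to 15.2) in SC-Mono and 11.6 (11.0 to 12.2) in SC-APC, and its log2 fold change in the first step was 2.53 (2.34 to 2.71). Both were thus far lower in BM-Mono than in the spinal cord populations, and Zc3h12a exceeded Zc3h12c in each library, 3.46 times in BM-Mono, 8.23 times in SC-Mono and 7.36 times in SC-APC. From SC-Mono to SC-APC the log2 fold changes were -0.31 for Zc3h12a and -0.34 for Zc3h12c.

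The roquins stayed within a 2-fold change throughout. Rc3h1 (chr1:160906418-160974978, plus strand) had 10.6 TPM (10.2 to 11.0) in BM-Mono, 16.9 (16.3 to 17.5) in SC-Mono and 16.0 (15.4 to 16.6) in SC-APC, with a log2 fold change of 0.83 (0.74 to 0.93) in the first step. Rc3h2 (chr2:37370069-37422903, minus strand) had 6.10 TPM (5.73 to 6.50), 8.30 (7.82 to 8.81) and 5.49 (5.15 to 5.84), with 0.61 (0.46 to 0.76) in the first step. The lengths assigned to these genes, which average over the transcripts that took up the reads, moved between libraries, and SC-APC was quantified on another transcript set than both monocyte libraries. The effective length of Rc3h1 was 9719 bases in BM-Mono, 8694 in SC-Mono and 7630 in SC-APC, and that of Rc3h2 was 7458, 6723 and 8432. Those of Zc3h12a (2044, 2152 and 2505) and Elavl1 (2026, 2147 and 2391) moved too, which bears on their TPM values. The direction of small differences depended on the scale. From SC-Mono to SC-APC, the log2 fold change of Rc3h1 was -0.31 on reads and 0.00024 once reads were divided by effective length, and from BM-Mono to SC-APC Rc3h2 had 0.32 on reads and -0.13 on log2 of rescaled TPM plus 1.

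Elavl1 (chr8:4285382-4325413, minus strand) was the one gene of the list with a value below 0 from BM-Mono to SC-Mono, and it was not called in any comparison. Its level was 67.5 TPM (65.1 to 70.0) in BM-Mono, 47.0 (45.0 to 49.1) in SC-Mono and 35.6 (33.9 to 37.3) in SC-APC. The log2 fold change from BM-Mono to SC-Mono was -0.12 (-0.22 to -0.02) on reads, close to the median of all active genes, and -0.51 on log2 of rescaled TPM plus 1, where the median of all active genes was -0.37. From BM-Mono to SC-APC it was -0.39 on reads and -0.91 on that TPM scale, where the medians of all active genes were -0.17 and -0.46. Within a library, the ratio of Zfp36 to Elavl1 was 7.44 (7.16 to 7.73) in BM-Mono, 36.2 (34.6 to 37.9) in SC-Mono and 45.6 (43.5 to 47.8) in SC-APC. The gene overlaps Ccl25 on the opposite strand, which had at most 70.0 reads.

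Tent5c (chr3:100451628-100489324, minus strand) had the steepest difference of the 9 genes. It had 49 reads in BM-Mono, 14003 in SC-Mono and 12523 in SC-APC. In TPM this was 0.425 (0.321 to 0.562), 136 (134 to 138) and 111 (110 to 113), so the gene lay below a TPM of 3 in the bone marrow alone. The log2 fold change from BM-Mono to SC-Mono was 8.60 (8.15 to 9.10), and 99.4% of active genes had a lower value. On log2 of TPM plus 1 it was 6.59, since the added 1 exceeds the level in BM-Mono. Tent5c is known from plasma cells, B cells and red cell precursors as well as from macrophages. Of the B cell markers, Cd79b had 194 reads in BM-Mono, 57 in SC-Mono and 67 in SC-APC, Ms4a1 had 6, 29 and 5, and Cd79a and Pax5 had at most 10 in any library. The summed TPM of 5 plasma cell markers was 1.34 in BM-Mono, 63.0 in SC-Mono and 84.3 in SC-APC, of which Sdc1 made up nearly all in the spinal cord, whereas Jchain had 17 reads in BM-Mono and 2 in either spinal cord library. The summed TPM of red cell markers was 1.94 in BM-Mono, 148 in SC-Mono and 50.6 in SC-APC, most of it from globin genes. The part of such cells in the Tent5c reads was not tested.

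**Figure D3:**
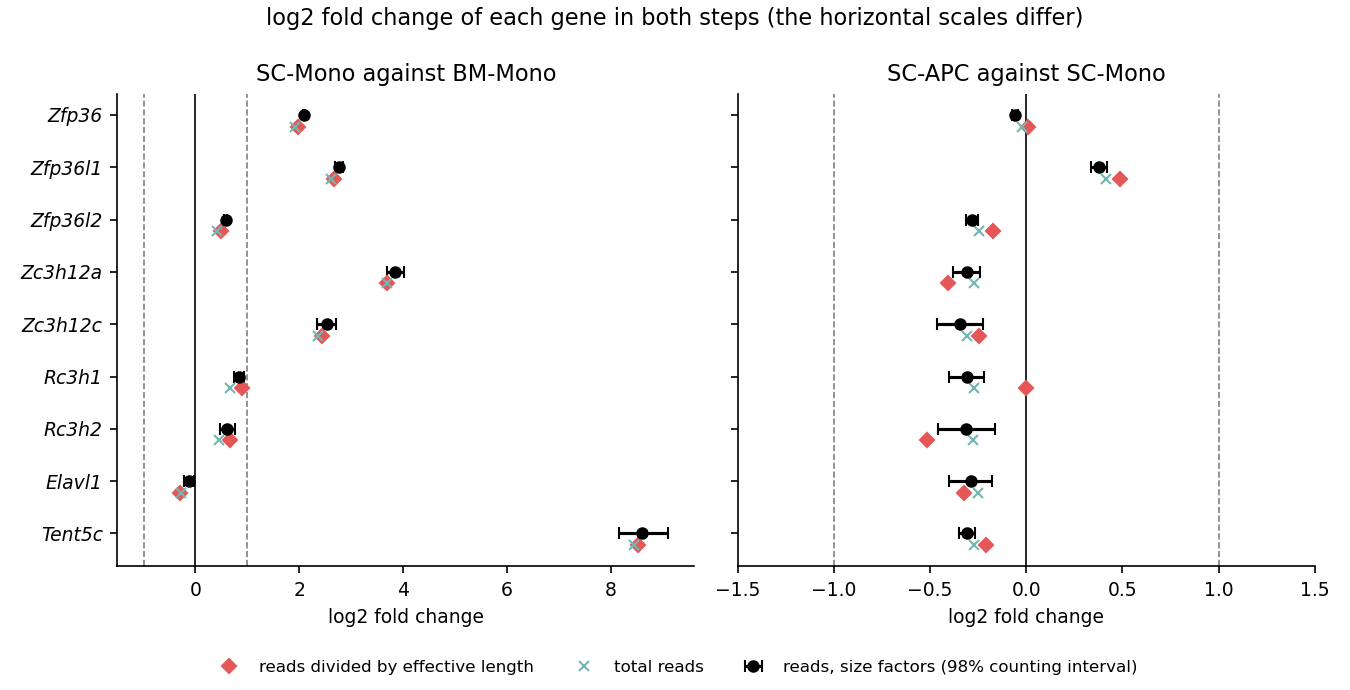
log2 fold change of the 9 genes from BM-Mono to SC-Mono (left) and from SC-Mono to SC-APC (right, on a wider scale), from reads with size factors (black, bars are 98% counting intervals), from reads per effective length (diamonds) and from total reads (crosses). Dashed lines mark a 2-fold change. On the left 5 genes lie beyond it, up to 8.60 for Tent5c, and on the right all 9 lie between -0.34 and 0.38 on reads.

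Between SC-Mono and SC-APC, 8 of the 9 genes had a value below 0 on reads, 1 above, and their median was -0.31, with -0.03 for all active genes. The other genes lay between -0.34 and -0.28, apart from Zfp36 and Zfp36l1. From BM-Mono to SC-APC the same 5 genes were called higher and 0 lower, and 14.0% of 10190 active genes were called higher and 11.7% lower. In that comparison the log2 fold changes were 2.04 for Zfp36, 3.16 for Zfp36l1, 3.56 for Zc3h12a, 2.20 for Zc3h12c and 8.31 for Tent5c. Tent5c passed the filter there through SC-APC alone. The comparison of SC-APC with BM-Mono shares a library with each of the other comparisons and is no independent check of them.

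The scale moved the values of the 9 genes and the median of all active genes from BM-Mono to SC-Mono downward when rescaled TPM was used, though single genes moved the other way. The median of all active genes was -0.17 on reads and -0.37 on log2 of rescaled TPM plus 1, and counts past the fold threshold went from 1369 higher and 1104 lower to 1315 higher and 1890 lower. The 5 genes called higher were past a 2-fold change on both scales.

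Most genes of the machinery that the regulators recruit were not called. This also held over all active genes, of which 13.6% were called higher in SC-Mono than in BM-Mono and 11.0% lower. Of 18 genes of the CCR4-NOT and PAN2-PAN3 deadenylases and their partners, 3 were called higher in SC-Mono than in BM-Mono and 0 lower, with a median of -0.38. The 3 were Btg1 (205 TPM in BM-Mono, 823 in SC-Mono and 535 in SC-APC), Btg2 (107, 336 and 245) and Tob1 (13.2, 46.6 and 45.8), which are antiproliferative adaptors of the complex. The scaffold Cnot1 had a log2 fold change of -0.73 and the poly(A) binding protein gene Pabpc1, the most abundant of this list, -0.20. Of 18 genes of decapping and 5′ to 3′ decay, 0 were called higher and 1 lower, Lsm5 (212 TPM in BM-Mono and 80.2 in SC-Mono), with a median of -0.29. The call of Lsm5 was lost with reads per effective length, at the percentile of 0.1 and with an assumed spread. Its most abundant genes after Lsm5 were Eif4e2 and Lsm4, at 0.33 and -0.26. Of 18 genes of the exosome and 3′ to 5′ decay, 0 were called in either direction and the median was -0.36. The most abundant were Exosc8, Exosc3 and Wdr61, at -0.68, -0.25 and -0.05. None of these 3 lists had a called gene from SC-Mono to SC-APC. Every gene of the 3 lists was active in each library.

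Other proteins that bind AU-rich elements or stem-loops were mixed. Of 19 such genes, 18 were active from BM-Mono to SC-Mono, 3 were called higher and 1 lower, and the median was -0.06. The shares over all active genes were 13.6% higher and 11.0% lower. Arid5a, whose product protects Il6 mRNA from regnase-1, had 45.8 TPM in BM-Mono, 106 in SC-Mono and 51.2 in SC-APC, with log2 fold changes of 1.22 and then -1.07, the second not called. N4bp1, a gene with a regnase-like nuclease domain, had 28.6, 63.6 and 52.5 TPM and a log2 fold change of 1.44. Igf2bp2 was called higher at low levels, with 0.248, 4.44 and 1.25 TPM. Its reads were 19, 98 and 95, so the lower TPM in SC-APC than in SC-Mono was hardly seen in reads (-0.19). It passed the filter through SC-Mono alone. Celf2 was called lower, with 130, 56.1 and 69.6 TPM and -1.13. The most abundant genes were Ybx1, Hnrnpd and Hnrnpab, at 0.10, -0.53 and -0.32, and none of them was called. No gene of the list was called from SC-Mono to SC-APC, and from BM-Mono to SC-APC Tia1 was also lower and N4bp1 alone remained higher. Igf2bp2, at 2.61 in that comparison, did not pass the filter there.

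Of 9 paralogs of the 9 genes, only Tent5a and Zc3h12d were active, and neither was called. Tent5a, the paralog of Tent5c, went from 47.0 TPM in BM-Mono to 29.6 in SC-Mono and 26.4 in SC-APC, opposite in direction to Tent5c. Zc3h12d had 15.2, 6.16 and 5.47 TPM. The next most abundant, Elavl3, had at most 24 reads.

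Tristetraprolin and regnase-1 are switched by kinases, phosphatases and a protease, and their genes were mixed as well. Of 14 such genes, 13 were active, 2 were called higher in SC-Mono and 1 lower, with a median of 0.19. The shares over all active genes were 13.6% higher and 11.0% lower. Dusp1, which codes for a phosphatase that turns off p38, had 466 TPM in BM-Mono, 1383 in SC-Mono and 1459 in SC-APC and a log2 fold change of 1.93 in the first step. Malt1, the protease that cleaves regnase-1 and roquins, had 44.3, 194 and 133 TPM and 2.10. Mapk14, which codes for p38 alpha, upstream of tristetraprolin phosphorylation, was called lower at 211, 64.4 and 61.2 TPM. Mapkapk2, whose kinase phosphorylates tristetraprolin, had 286, 273 and 191 TPM and 0.21, and was not called. None was called from SC-Mono to SC-APC. From BM-Mono to SC-APC, Ikbkb and Ppp2cb joined Mapk14 as lower, the former with 138, 75.4 and 36.7 TPM and the latter with 132, 58.1 and 48.0.

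The mRNAs that these regulators act on were mostly higher in the same libraries. Of 19 targets of tristetraprolin or regnase-1, listed from common knowledge with earlier results of these data known, 17 were active from BM-Mono to SC-Mono. Of these, 16 were called higher and 1 lower, against 13.6% and 11.0% of all active genes. The median was 5.77, also with the genes at 0 reads in BM-Mono set to their lower bound. Only 10 targets exceeded a TPM of 3 in BM-Mono. The other active ones passed the filter through SC-Mono alone, so a call of lower was hardly possible for them. Il1b had 6.37 TPM in BM-Mono, 3821 in SC-Mono and 2899 in SC-APC, Cxcl2 had 33.1, 3315 and 2666, and Ier3 had 35.1, 1569 and 1083. Tnf had 11.5, 385 and 281 TPM. Il10 and Icos had 0 reads in BM-Mono and were at least 87.5-fold and 166-fold higher in SC-Mono against a floor of 3 reads in the BM-Mono library. Icos had 0, 6.30 and 10.6 TPM, and the 9 T cell markers summed to 0.820, 64.3 and 95.1 TPM. The part of T cells in the Icos reads was not tested. Lcn2, a target of regnase-1 and a granule gene of myeloid precursors, was lower, at 1039, 144 and 84.7 TPM. In SC-APC against SC-Mono, Il12b was called higher (29 and 427 reads) and Ccl2 lower (1059 and 290 TPM), and the other 17 were not called. Steady-state levels hold both synthesis and decay, so no decay rate can be read from these values.

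**Figure D4:**
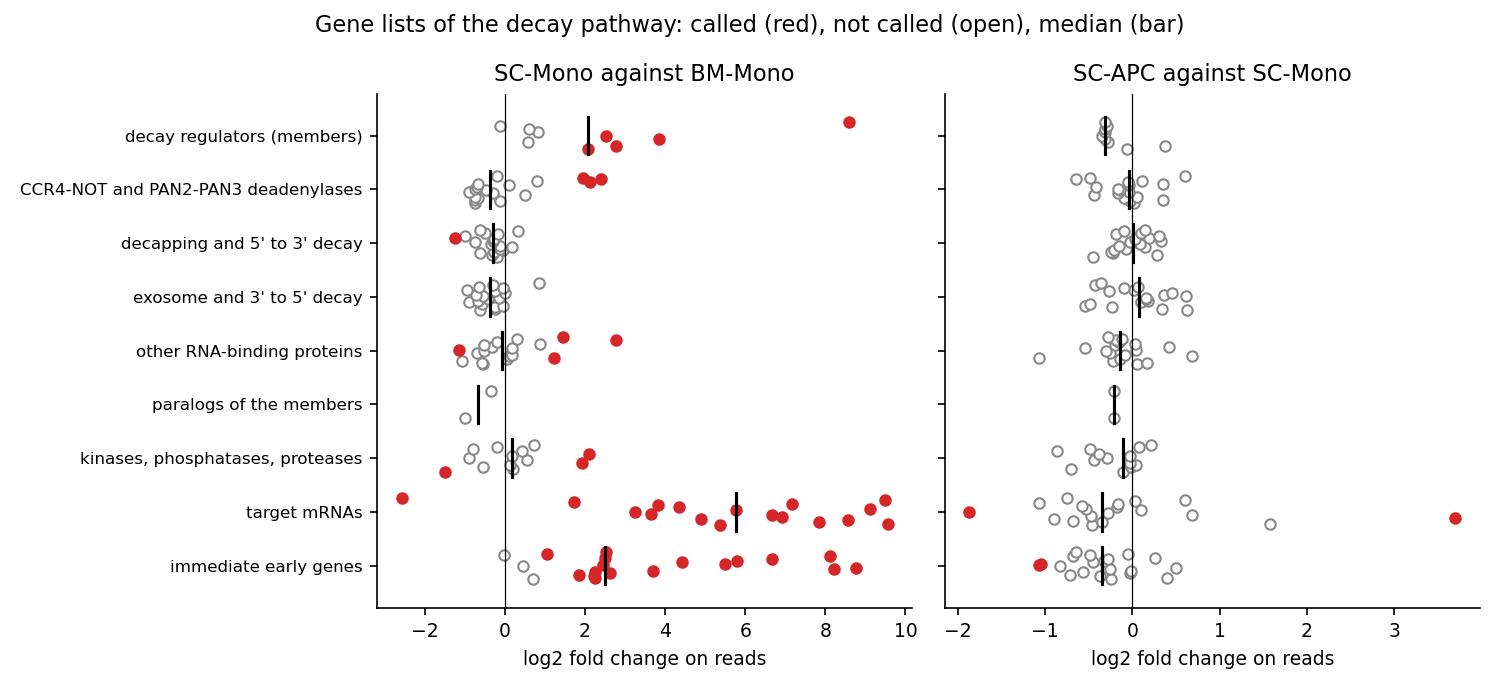
log2 fold change on reads of the 9 regulators and of 8 gene lists of the pathway from BM-Mono to SC-Mono (left) and from SC-Mono to SC-APC (right), 1 point per active gene, red where called and open where not, with the median as a bar. On the left the medians of the targets (5.77), the immediate early genes (2.51) and the 9 regulators (2.09) lie to the right of 0, and those of the deadenylases (-0.38), decapping (-0.29) and exosome (-0.36) lists to the left. The fitted values of genes with 0 reads in BM-Mono depend on the read added to each count.

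Immediate early genes, which respond within minutes to stimulation and to tissue handling, moved with the called regulators. Of 20 genes listed as such, 17 were called higher in SC-Mono than in BM-Mono and 0 lower, with a median of 2.51. The list includes the heat shock genes Hspa1a and Hspa1b, both among the 17, at 5.80 and 6.66. Over all active genes, 13.6% were called higher and 11.0% lower. In BM-Mono 17 of the 20, not the same set as those called, exceeded a TPM of 3, and the rest passed the filter through SC-Mono alone. Junb had 345 TPM in BM-Mono, 1738 in SC-Mono and 1727 in SC-APC, and Atf3 had 43.9, 1499 and 650. Fos, already at 1665 TPM in BM-Mono, had a log2 fold change of 0.70 and was not called. In SC-APC against SC-Mono, Atf3 and Ier5 were called lower and 18 were not called. Both lay at the threshold, and 0 were called with total reads and 1 with reads per effective length. The spinal cords were digested with collagenase D and DNase I for 30 min at 37 °C and spun through Percoll, while the bone marrow was flushed and enriched with beads, so the organ and the way cells were prepared cannot be told apart. Zfp36 is itself known as an early response gene.

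Markers of other cells also differed between the libraries. The summed TPM of 10 microglia markers was 14.0 in BM-Mono, 169 in SC-Mono and 457 in SC-APC, and that of 9 T cell markers 0.820, 64.3 and 95.1. Neutrophil markers summed to 998, 187 and 411 TPM, and 6 endothelial markers to 17.2, 75.2 and 46.3. The neutrophil markers did not move as one, since 4 of 6 active ones were called lower and 2 higher from BM-Mono to SC-Mono. Markers of macrophages at the borders of the central nervous system (6 genes) summed to 15.7, 36.8 and 51.1 TPM, and those of conventional dendritic cells (6 genes) to 40.8, 21.3 and 28.3. Flt3 made up most of the dendritic cell sum in BM-Mono, with 37.8, 3.65 and 6.65 TPM. Of the 3 dendritic cell markers active from BM-Mono to SC-Mono, 2 were called higher and 1, Flt3, lower. The monocyte markers of the gate were present in each library, with Itgam at 485, 533 and 510 TPM and Ly6c2 at 5205, 3602 and 1067. From BM-Mono to SC-Mono all 9 active microglia markers and all 8 active T cell markers were called higher, and in SC-APC against SC-Mono 9 of 10 microglia markers and 0 of 8 T cell markers were. In BM-Mono only 1 of 10 microglia markers and 0 of 9 T cell markers exceeded a TPM of 3. The other active ones passed the filter through SC-Mono alone, so the direction of their calls in the first step was largely set by the filter. The part of these cells in the regulators' levels was not tested.

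Among 10037 genes active in any library, Gm-numbered and Rik genes left out, those whose pair of fold changes lay nearest to Zfp36 were Clu, which codes for a secreted chaperone (distance 0.028 on the log2 scale), Tob1 (0.035) and Tnip1 (0.061). These distances rest on 2 differences over 3 libraries. Tob1 codes for a deadenylase adaptor and Tnip1 for an inhibitor of NF-kappa B signalling, and their log2 fold changes from BM-Mono to SC-Mono were 2.12 and 2.04. Nearest to Tent5c were Rasgef1b (0.21), Bcl2a1b (0.23) and Ch25h (0.27). Rasgef1b had 0.703, 219 and 162 TPM and Bcl2a1b, one of several near-identical copies among which reads are hard to assign, 2.56, 879 and 814. Ch25h, a cholesterol hydroxylase gene, had 0 reads in BM-Mono and 169 in SC-Mono, at least 77.5-fold higher against the floor of 3 reads, so its place beside Tent5c depends on the read added.

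Promoter windows from 250 bases before to 50 after the start were available from RefSeq (GRCm38.p6) for 8 of the 9 genes, and those of Zfp36 and Zfp36l1 are shown as both genes were called higher and held a match to a stimulus-response motif. The motifs searched on both strands were AP-1 (TGANTCA), CRE (TGACGTCA), an NF-kappa B core (GGANTTTCC), GAS (TTCCNGGAA), EGR (GCGGGGGCG) and the box TATAAA, in capitals where found. The Zfp36 window, chr7:28379179-28379478 on the minus strand, held 1 EGR match that begins 105 bases before the start, and the Zfp36l1 window, chr12:80112964-80113263 on the minus strand, held 1 AP-1 match at 129 and 1 TATAAA match at 29 bases before it. No matches overlapped.
Zfp36: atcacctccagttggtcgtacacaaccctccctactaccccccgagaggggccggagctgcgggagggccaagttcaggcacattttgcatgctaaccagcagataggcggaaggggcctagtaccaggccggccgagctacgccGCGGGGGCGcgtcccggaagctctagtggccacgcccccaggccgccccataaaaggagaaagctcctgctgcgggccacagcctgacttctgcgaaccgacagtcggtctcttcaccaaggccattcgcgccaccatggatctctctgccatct
Zfp36l1: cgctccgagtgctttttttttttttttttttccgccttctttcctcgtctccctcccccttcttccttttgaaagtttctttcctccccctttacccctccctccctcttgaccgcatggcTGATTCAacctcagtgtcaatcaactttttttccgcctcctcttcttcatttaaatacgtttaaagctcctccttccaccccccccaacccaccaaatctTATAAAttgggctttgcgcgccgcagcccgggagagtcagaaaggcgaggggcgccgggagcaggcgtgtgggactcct

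Of 32851 promoter windows, 2.91% held the EGR letters, 7.81% the AP-1 letters and 13.6% the box TATAAA. Rc3h1, which was not called, held an AP-1 match at 133 bases before its start, and the windows of Rc3h2, Zc3h12a, Zc3h12c, Elavl1 and Tent5c held none of the 6 motifs. Egr1, whose product binds the EGR motif, had 18.4 TPM in BM-Mono, 194 in SC-Mono and about the same in SC-APC. Any action of its product on Zfp36 was not tested. A match is no measure of binding, and these windows say nothing of more distant elements.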

How the data were processed

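The authors deposited estimated counts (reads, not normalized, fractional where a read was shared) and TPM (already normalized for length and depth) for 3 pooled libraries, made with Salmon 0.14.1 on mm10 per the labels, with GENCODE vM22 per the methods. The SC-APC values list fewer genes (22242) than the monocyte values (54432), so they came from another transcript set, and the 22238 common genes were compared.

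Expected counts were rounded, 1 read was added, and each library's reads got a gamma posterior, scaled by pairwise median-of-ratios factors. A call needed percentile 1 or 99 of the log2 ratio beyond 2-fold and a rescaled TPM above 3 in 1 or both libraries. This computes the study's GFold definition anew, and GFold was not run. The calling step was also run on simulated libraries with known changes, as a check of the code alone. No p-value is given, as no population has a replicate.

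The 9 genes and all lists were chosen with earlier results of these data known. Named from each list were the 3 genes with the highest TPM, each called gene where 4 or fewer were called, and the 3 nearest to Zfp36 and to Tent5c. Tnf, Csf2, Il10, Icos, Lcn2, Cnot1, Egr1, Hspa1a, Hspa1b and the marker genes were named after their values were seen. Positions and 3′ UTRs came from GENCODE M21 on GRCm38 and promoters from RefSeq. Alternatives were other TPM filters, total reads, TMM factors (edgeR 4.0.16, R 4.3.3), reads per effective length, an assumed spread, a percentile of 0.1, 0.5 reads added, a plain 2-fold change, TPM ratios and all genes of the monocyte libraries. Python 3.11.15, pandas 2.3.3 and scipy 1.17.1 were used. Results on 2 marker genes are not reported here.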

Additional observations from a re-analysis of the deposited data

How the results depend on the processing

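The 5 genes called higher from BM-Mono to SC-Mono and from BM-Mono to SC-APC were the same in number under all alternatives except an assumed coefficient of variation of 0.4 between libraries, which left 2 and 3 of them. Zc3h12a and Tent5c were past the threshold there in both comparisons, and Zfp36l1 from BM-Mono to SC-APC. From SC-Mono to SC-APC, 0 of the 9 genes were called under any alternative. Of 360 fold changes of the 9 genes under alternatives, 349 kept their sign and their side of the threshold, 5 were no longer called, all under that assumed spread, and 6 changed sign, none of them called. The changes of sign from SC-Mono to SC-APC were Zfp36 (0.0089) and Rc3h1 (0.00024) with reads divided by effective length, and 0.16 and 0.14 with TPM as deposited. From BM-Mono to SC-APC they were Rc3h2 with rescaled TPM, -0.13 with a pseudocount of 1 and -0.15 with 0.1. The cause was not tested. Over all genes, calls from SC-Mono to SC-APC went from 189 higher and 162 lower to 43 and 14 with that assumed spread and to 389 and 288 with no filter on TPM, and from BM-Mono to SC-Mono the assumed spread left 627 and 228. Rescaled TPM with a pseudocount of 1 turned the balance to 274 higher and 528 lower from SC-Mono to SC-APC and, from 1430 and 1196, to 1315 and 2433 from BM-Mono to SC-APC. Over all settings from BM-Mono to SC-Mono, called genes ran from 0 to 6 for the deadenylases, 0 to 3 for decapping and for the exosome, 0 to 5 for the other RNA-binding proteins, 0 to 4 for the kinases, phosphatases and proteases, 15 to 19 for the targets and 8 to 17 for the immediate early genes. With 1 pooled library per population, the spread between animals is not known, and among the 9 genes the fewest reads, 49, were those of Tent5c in BM-Mono.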
